A study of Homo sapiens with 6 samples.

Results

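The receptor tyrosine kinases DDR1, DDR2, PDGFRA, PDGFRB, AXL, MET, FGFR1, ROR1, ROR2 and KIT, 10 genes grouped as mesenchymal receptors although DDR1 and MET are also known from epithelia, are described here in SKOV3 cells with and without silencing of KLF5. DDR2 was selected because its p-value in this comparison was among the smallest, and the other 9 were chosen beside it as related receptors. In the fit used here, which need not be the one behind that choice, DDR2 was number 5 from the smallest p-value among 15803 tested genes. Of the 29185 genes in the deposited table, 9 are among these 10 receptors, and KIT was not analysed here. Because the receptors were chosen with this comparison known, their values are given as a description and without a p-value. The other gene lists below were also chosen with earlier results of these data known. The p-values printed for their genes therefore describe the fit and are no independent support.

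Receptor tyrosine kinases are surface proteins that bind a ligand outside the cell, come together in pairs or larger groups and phosphorylate tyrosines inside the cell, from which adaptor proteins pass the signal on. DDR1 and DDR2 differ from most of the family in that their ligand is collagen, and DDR2 is best known from fibroblasts and other mesenchymal cells, whereas DDR1 is typical of epithelia. PDGFRA and PDGFRB are the receptors of platelet-derived growth factors, AXL of GAS6, MET of hepatocyte growth factor, FGFR1 of fibroblast growth factors, ROR1 and ROR2 of WNT5A, and KIT of stem cell factor.

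The line SKOV3 comes from a human ovarian cancer and is widely used. The sh-KLF5 group consisted of SKOV3 cells that stably carried a pLKO.1-EGFP-Puro vector against KLF5, a zinc finger transcription factor, delivered by lentivirus and selected with puromycin. The sh-NC group consisted of the control SKOV3 cells, whose genotype the labels give as WT. Neither the number of hairpins nor a selection of single clones is stated. RNA was selected for poly(A) tails and sequenced from 3 libraries of each group. The study speaks of independent repetitions in general terms, and the labels do not say whether the 3 libraries of a group came from separate cultures. If they did not, standard errors and p-values measure only a spread between these libraries that may be technical.

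The reads counted on genes ranged from 15852319 to 17543896 per library, and a count of 0, which allows up to 3 reads, corresponded to at most 0.171 to 0.189 CPM. KLF5 itself had 4430 ± 61.3 normalized counts in sh-NC against 1540 ± 177 in sh-KLF5 (SD, n = 3), or 34.8% of the control level. Across all genes, sh-KLF5 libraries 1 and 3 were the most unlike pair within a group, where chi-square divided by its degrees of freedom was 30.4, against 4.33 to 8.41 within sh-NC. It was 23.5 for sh-KLF5 libraries 1 and 2 and 10.4 for libraries 2 and 3, so that library 1 was the most unlike the others by this measure. Of 7 markers of the line's epithelial identity, KRT8 and MUC16 fell (log2 fold changes -1.17 and -1.54, limma adjusted p = 4.35e-05 and 0.00737). The summed level of the list was 1526 to 1817 CPM in sh-NC and 682 to 945 CPM in sh-KLF5, of which KRT8 alone held 1191 to 1425 and 464 to 679 CPM. KRT18 had a log2 fold change of -0.64 (limma adjusted p = 0.00343), below the fold threshold, and EPCAM, CDH1, ERBB2 and KRT19 (-0.03, -0.15, -0.33 and 1.14) did not pass the test. Of 5 leukocyte markers, 4 were in the table, and none of them exceeded 3 reads in any library. The sum of the 3 endothelial markers in the table was 4.05 to 5.17 CPM in sh-NC and 2.02 to 4.61 CPM in sh-KLF5.

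The 250 bases before the RefSeq transcription starts (GRCh38.p14) were read for DDR2, PDGFRA and ROR1, the receptors with the largest differences below. These windows show the stretches before annotated starts, which need not be the starts in use. An entry was found for 9 of the 10 receptors, FGFR1 excepted, with 20 starts. The letters CCNCNCCC, the core that KLF proteins are known to prefer, and GGGCGG, the GC box of Sp and KLF proteins, were searched on both strands, and matches of the motifs can overlap. Windows outside GENCODE exons are printed 5′ to 3′, with capitals marking the matches. They are the most upstream window of DDR2 at chr1:162630613-162630862 (+ strand), the downstream window of PDGFRA at chr4:54233710-54233959 (+ strand) and the window of ROR1 at chr1:63773767-63774016 (+ strand).
DDR2: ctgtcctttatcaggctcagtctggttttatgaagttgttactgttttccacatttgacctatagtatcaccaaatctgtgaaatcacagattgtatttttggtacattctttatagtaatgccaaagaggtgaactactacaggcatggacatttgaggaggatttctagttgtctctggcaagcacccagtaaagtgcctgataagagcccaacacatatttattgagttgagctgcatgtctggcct
PDGFRA: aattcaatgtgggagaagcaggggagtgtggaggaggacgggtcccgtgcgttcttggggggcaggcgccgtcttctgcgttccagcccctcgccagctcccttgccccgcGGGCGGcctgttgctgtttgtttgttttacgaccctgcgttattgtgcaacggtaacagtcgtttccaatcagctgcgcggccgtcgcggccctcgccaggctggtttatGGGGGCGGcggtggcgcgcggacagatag
ROR1: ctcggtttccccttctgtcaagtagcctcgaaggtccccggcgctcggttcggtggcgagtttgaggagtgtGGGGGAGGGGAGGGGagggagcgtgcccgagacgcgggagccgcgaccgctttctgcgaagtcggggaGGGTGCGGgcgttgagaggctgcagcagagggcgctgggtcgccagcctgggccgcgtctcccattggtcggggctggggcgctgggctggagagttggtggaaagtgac

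None of the 3 DDR2 windows held either run of letters, and their GC content was 40.0%, 44.4% and 42.4%, against a median of 58.0% over all 35116 windows of this length. Of all windows, 53.4% held CCNCNCCC and 42.6% held GGGCGG. The downstream PDGFRA window held 1 match of CCNCNCCC and 2 of GGGCGG, with a GC content of 64.0%, and the upstream PDGFRA window held none. The ROR1 window held 4 matches of CCNCNCCC and none of GGGCGG, with a GC content of 69.2%. These matches describe letters only, gene counts do not say which start was in use, and nothing follows from them about the binding of KLF5. The RefSeq starts of DDR2 and ROR1 lie outside GENCODE exons. For ROR1 the releases nearly coincide, with 63774017 in RefSeq and 63774022 in GENCODE. For DDR2 they differ more, with 162630863, 162631975 and 162632464 in RefSeq and 162631373 in GENCODE.

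DDR2, the collagen receptor on chromosome 1 (ENSG00000162733, GRCh38 positions 162631373 to 162787400, + strand), had 944.1, 754.8 and 670.6 normalized counts in sh-NC libraries 1, 2 and 3. Its values in sh-KLF5 libraries 1, 2 and 3 were 46.9, 47.5 and 61.2 normalized counts. The groups lay far apart, since even the highest sh-KLF5 library was well under the lowest sh-NC library. The mean was 789.8 ± 140.1 in sh-NC against 51.9 ± 8.06 in sh-KLF5 (SD, n = 3), so that 6.57% of the control level was left, against 34.8% for KLF5. On the log2(normalized count + 1) scale the fold change was -3.90 (standard error 0.18, 95% interval -4.27 to -3.52). In bulk RNA of a cell line, fewer cells that express DDR2 and less DDR2 RNA per cell cannot be told apart. No exonic base of DDR2 overlaps an exon of another gene in GENCODE release 29, whose 6 DDR2 transcripts cover 10730 exonic bases.

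DDR1, the epithelial paralog of DDR2 (ENSG00000204580, chromosome 6, 30876421 to 30900156, + strand), had 724.4, 779.4 and 849.9 normalized counts in sh-NC against 960.1, 1139 and 869.3 in sh-KLF5. All 3 sh-KLF5 libraries were above all 3 sh-NC libraries, but the gap between the nearest libraries was small. The mean was 784.6 ± 62.9 in sh-NC against 989.5 ± 137.3 in sh-KLF5 (SD, n = 3). The log2 fold change was 0.33 (standard error 0.13, 95% interval 0.055 to 0.60, not adjusted for the number of genes). In the fit used here it met neither the fold threshold of 1 nor an adjusted p under 0.05. Compared per length, as reads scaled by exonic length and library total (RPKM), DDR2 made up 52.6%, 45.2% and 40.1% of the DDR1 and DDR2 level in the sh-NC libraries. In the sh-KLF5 libraries this share was 3.99%, 3.43% and 5.64%. By this measure the control cells carried both collagen receptors at similar levels, and after silencing of KLF5 nearly all of the summed level was DDR1. The exonic length joins the exons of all annotated transcripts (58 for DDR1), which can exceed the length of those in use. RPKM values of different genes therefore compare only roughly.

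**Figure D1:**
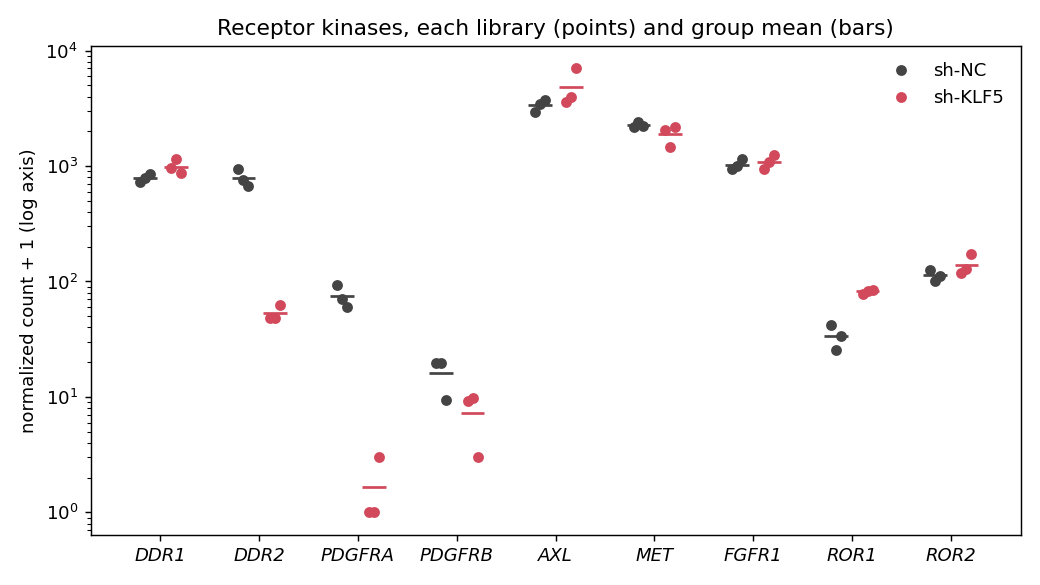
Normalized count + 1 (log axis) of the 9 receptor genes in the table, for the 3 sh-NC libraries (dark points) and the 3 sh-KLF5 libraries (red points), with group means as bars. DDR2 lay between 670.6 and 944.1 in sh-NC and between 46.9 and 61.2 in sh-KLF5 before the addition of 1, and the groups of AXL, FGFR1, ROR2 and PDGFRB overlapped.

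PDGFRA (ENSG00000134853, chromosome 4, 54229097 to 54298247, + strand), the receptor that marks many mesenchymal progenitors, had 92.2, 69.0 and 59.4 normalized counts in the sh-NC libraries. In sh-KLF5 it was at 0 in libraries 1 and 2 and at 2.01 in library 3. Over the whole groups these were 225 reads in sh-NC and 2 reads in sh-KLF5, a ratio of 111-fold with an exact 95% interval of 30.4 to 924 for counting error alone. The groups did not overlap. The fitted log2 fold change of -5.67 (standard error 0.54) rests on values near 0 and moved to -8.03 with a pseudocount of 0.1 and to -3.79 with a pseudocount of 5. Of its exonic bases, 15.8% are shared with AC058822.1, a gene on the same strand that was not analysed here, and how reads on these bases were assigned is not given in the sources used here.

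PDGFRB (ENSG00000113721, chromosome 5, 150113837 to 150155872, - strand), the receptor typical of pericytes and fibroblasts, had 18.6, 18.7 and 8.49 normalized counts in sh-NC. Its sh-KLF5 libraries had 8.15, 8.73 and 2.01 normalized counts. The groups overlapped, and the gene had too few reads for the filter, so no fold change was fitted.

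ROR1 (ENSG00000185483, chromosome 1, 63774022 to 64181498, + strand), a WNT5A receptor that is best known from embryonic tissue and tumors, went the other way. It had 41.0, 24.6 and 32.9 normalized counts in sh-NC against 77.5, 81.5 and 84.2 in sh-KLF5. The lowest sh-KLF5 library was above the highest sh-NC library, and the 3 sh-KLF5 libraries were close to each other. The mean was 32.8 ± 8.17 in sh-NC against 81.1 ± 3.40 in sh-KLF5 (SD, n = 3), which is 247% of the control level, with a log2 fold change of 1.31 (standard error 0.26, 95% interval 0.76 to 1.85).

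ROR2 (ENSG00000169071, chromosome 9, 91563091 to 91950162, - strand), its paralog, had 123.8, 100.5 and 111.4 normalized counts in sh-NC against 118.2, 128.1 and 170.5 in sh-KLF5. These groups overlapped, with a log2 fold change of 0.30 and a 95% interval of -0.12 to 0.71, and of 0.14 without sh-KLF5 library 3. ROR1 made up 22.3%, 17.5% and 20.4% of the RPKM of both ROR genes in the sh-NC libraries and 36.2%, 35.5% and 29.98% in the sh-KLF5 libraries, so that ROR2 stayed the more abundant of the pair in each library.

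**Figure D2:**
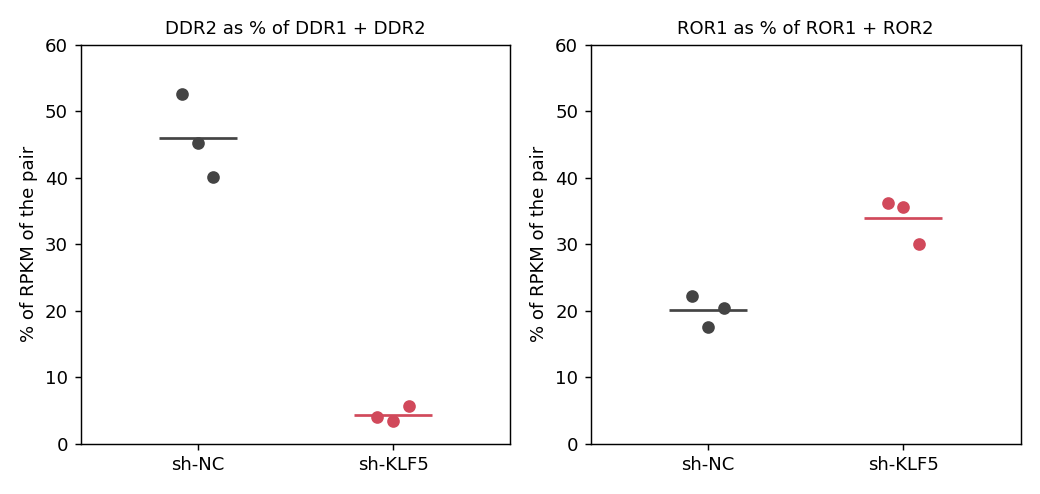
Share of DDR2 in the summed RPKM of DDR1 and DDR2 (left, % of the pair) and of ROR1 in that of ROR1 and ROR2 (right), 1 point per library with the group mean as a bar. The DDR2 share was between 40.1% and 52.6% in sh-NC and between 3.43% and 5.64% in sh-KLF5, and the ROR1 share was between 17.5% and 22.3% and between 29.98% and 36.2%.

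AXL (ENSG00000167601, chromosome 19, 41219203 to 41261766, + strand), a receptor of the TAM family that is often high in mesenchymal-like tumor cells, had 2920, 3466 and 3753 normalized counts in sh-NC against 3581, 3935 and 7040 in sh-KLF5. Library 3 of sh-KLF5 stood apart, while the other sh-KLF5 libraries lay beside the upper sh-NC values. The log2 fold change was 0.46 (standard error 0.21, 95% interval 0.004 to 0.92, not adjusted for the number of genes) with all libraries and 0.16 without sh-KLF5 library 3. In the fit used here AXL met neither the fold threshold of 1 nor an adjusted p under 0.05.

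MET (ENSG00000105976, chromosome 7, 116672390 to 116798386, + strand), the receptor of hepatocyte growth factor, had 2187, 2423 and 2219 normalized counts in sh-NC against 2032, 1447 and 2175 in sh-KLF5. The groups did not overlap, but 2219 and 2187 in sh-NC were close to 2175 in sh-KLF5. The log2 fold change was -0.29 with a 95% interval of -0.59 to 0.008, so that a difference of 0 lay within the interval, and it was -0.11 without sh-KLF5 library 2.

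FGFR1 (ENSG00000077782, chromosome 8, 38400215 to 38468834, - strand), a receptor of fibroblast growth factors, had 934.8, 997.2 and 1144 normalized counts in sh-NC against 934.6, 1087 and 1243 in sh-KLF5. The groups overlapped along nearly their whole range. The log2 fold change was 0.08 with a 95% interval of -0.20 to 0.36, which does not include changes of the size seen for DDR2, PDGFRA or ROR1. Without sh-KLF5 library 3 it was -0.020.

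Of the 8 receptors that had enough reads for the filter, 2 (DDR2 and PDGFRA) were called lower in sh-KLF5, 1 (ROR1) was called higher and 5 were not called. A call stands for a Benjamini-Hochberg adjusted p under 0.05 and a log2 fold change below -1 or above 1 with limma, and among all 15803 tested genes 3.37% were called lower and 1.90% higher. The libraries did not overlap, with sh-KLF5 lower, for DDR2, PDGFRA and MET, and with sh-KLF5 higher for DDR1 and ROR1, against 15.9% and 15.4% of all tested genes. Since the receptors were chosen on this comparison, nothing is read from these counts. The median log2 fold change of the 8 was 0.19, and that of all tested genes was -0.0023.

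Compared per length, AXL was the most abundant of the receptors in sh-NC, with a mean of 39.7 RPKM, followed by MET with 19.6 RPKM. DDR1, FGFR1 and DDR2 came next with 5.21, 4.49 and 4.47 RPKM, and the libraries of neighbours among these 3 overlapped. ROR2 followed with 1.17 RPKM, then PDGFRA with 0.459, ROR1 with 0.296 and PDGFRB with 0.130 RPKM, where PDGFRA and ROR1 overlapped. In sh-KLF5 the order from the top was AXL (57.0 RPKM), MET (16.3), DDR1 (6.63), FGFR1 (4.78) and ROR2 (1.45), and DDR2 was now below ROR1, with 0.294 RPKM against 0.736. DDR2, which had been level with FGFR1 by RPKM in the control cells, thus came to stand below both ROR genes by the same measure. The last places were held by PDGFRB with 0.054 and PDGFRA with 0.0041 RPKM, and no neighbours overlapped.

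Among all 52 receptor tyrosine kinases in the table, DDR2 went from place 16 in sh-NC to place 30 in sh-KLF5. AXL was at place 2 in both groups, behind the ephrin receptor EPHA2, and MET went from place 3 to place 4, behind the epidermal growth factor receptor EGFR. The 9 receptors together made up 26.5% to 29.02% of the RPKM of all receptor kinases in the sh-NC libraries and 25.7%, 24.3% and 34.7% in the sh-KLF5 libraries. In library 3 of sh-KLF5, AXL alone held 24.9%, against 13.0% to 15.8% in the 5 other libraries. DDR2 held a mean of 1.66% of the summed level in sh-NC and of 0.0956% in sh-KLF5.

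**Figure D3:**
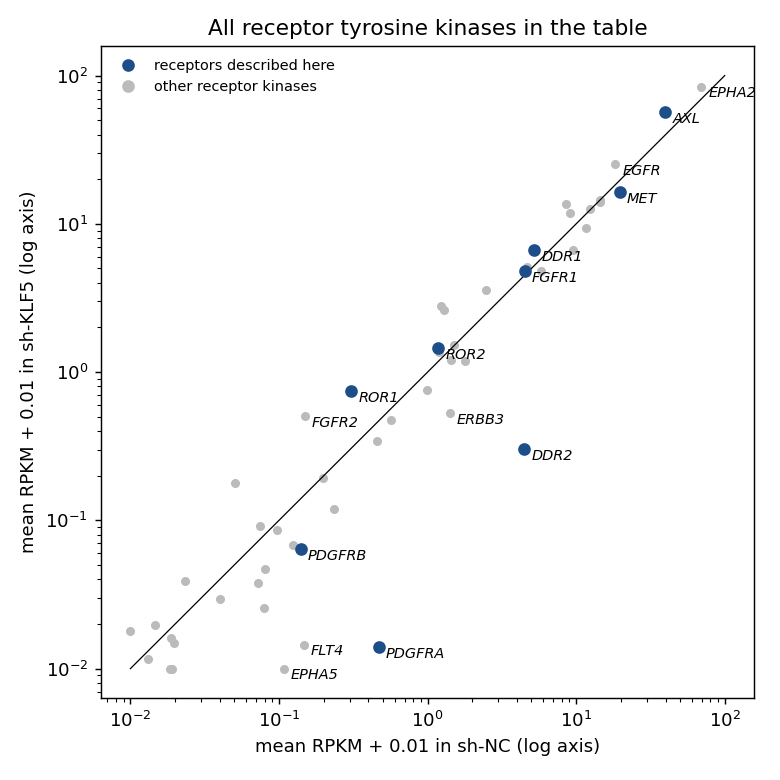
Mean RPKM + 0.01 of each of the 52 receptor tyrosine kinases in the table, in sh-NC (x axis) and sh-KLF5 (y axis), both on log axes, with the line of equal levels and the receptors described here in blue. AXL and MET lie near the line at the top right, whereas DDR2 (4.47 and 0.294 RPKM) and PDGFRA (0.459 and 0.0041 RPKM) lie below it and ROR1 (0.296 and 0.736 RPKM) above it.

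The other receptor tyrosine kinases were taken as a list of 48 genes, of which 43 were in the table and 28 were tested. In sh-KLF5, 3 of them fell, 4 rose and 21 were not called, with a median log2 fold change of -0.05. Among all 15803 tested genes, 3.37% were called lower and 1.90% higher. Since this list was also chosen with earlier results of these data known, nothing is read from these counts. ERBB3, the partner of ERBB2 that binds neuregulin, fell from 209.0 ± 16.7 to 77.6 ± 17.1 normalized counts (SD, n = 3), with a log2 fold change of -1.44 (limma adjusted p = 0.000117). FLT4, the receptor of lymphatic endothelial growth factors, fell from 61 reads in all of sh-NC to 2 in sh-KLF5 (30.1-fold, exact 95% counting interval 7.99 to 255). The ephrin receptor EPHA5 had 48 reads in sh-NC against 0 in sh-KLF5, at least 5.24-fold lower against 3 reads per library.

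Those that rose were FGFR2, a receptor of fibroblast growth factors (17.4 ± 5.29 to 61.3 ± 7.501 normalized counts, SD, n = 3, log2 fold change 1.79, limma adjusted p = 0.000877), the ephrin receptor EPHB2, the receptor-like kinase STYK1 and the angiopoietin receptor TEK. EPHB2 went from 264.0 ± 55.3 to 540.0 ± 80.6 and STYK1 from 69.2 ± 7.67 to 156.2 ± 19.3 normalized counts (SD, n = 3). TEK, with 3.17 ± 3.71 and 13.3 ± 3.52 normalized counts (SD, n = 3), passed only narrowly (limma adjusted p = 0.0442) and did not with edgeR (0.0604) or DESeq2 (0.08). The call of EPHB2 rested on single libraries, with log2 fold changes of 1.04 in all libraries, 0.86 without sh-NC library 1 and 0.93 without sh-KLF5 library 3. Without sh-KLF5 library 3, 2 of these 4 were called, FGFR2 and STYK1. EGFR was 138% of its control level, with a log2 fold change of 0.46 (limma adjusted p = 0.00952), below the fold threshold.

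Of 26 genes for ligands of the receptors, 22 were in the table and 17 were tested. In sh-KLF5, 6 of them fell, 2 rose and 9 were not called, and the median log2 fold change was 0.40. Among all 15803 tested genes, 3.37% were called lower and 1.90% higher. The list was chosen with earlier results of these data known, so nothing is read from these counts. Among the collagens, which are the ligands of DDR1 and DDR2, COL5A2 went from 763.5, 618.8 and 559.2 normalized counts in sh-NC to 64.2, 33.0 and 63.2 in sh-KLF5. Every sh-KLF5 library was far below every sh-NC library, and the log2 fold change was -3.62 (standard error 0.23, limma adjusted p = 3.61e-08). COL3A1, the chain of collagen III, fell from 505.0 ± 50.6 to 146.1 ± 12.3 normalized counts (SD, n = 3, log2 fold change -1.78, limma adjusted p = 5.67e-07). COL1A2 fell from 26.8 ± 6.87 to 1.65 ± 1.53 (SD, n = 3), and COL1A1, the other chain of collagen I, had 62.4 ± 6.55 and 80.7 ± 32.6 and was not called.

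Other collagen chains had higher values after silencing. COL6A1, a chain of the beaded-filament collagen VI, rose from 901.0 ± 45.8 to 2715 ± 467 normalized counts (SD, n = 3, log2 fold change 1.58, limma adjusted p = 5.18e-07). COL5A1 had 3569 ± 396 in sh-NC against 5174 ± 216 in sh-KLF5 (SD, n = 3), and its log2 fold change of 0.54 was below the fold threshold (limma adjusted p = 0.00465). The chains of collagen V therefore stood at 8.26% (COL5A2) and 145% (COL5A1) of their control levels.

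HGF, hepatocyte growth factor and the ligand of MET, had 752.3, 435.5 and 453.1 normalized counts in sh-NC against 31.6, 13.6 and 13.0 in sh-KLF5. All sh-KLF5 libraries were far below the lowest sh-NC library, with 3.55% of the control level left and a log2 fold change of -4.82 (standard error 0.30, limma adjusted p = 3.88e-08). Its receptor MET had 82.8% of its control level. The relation of receptor and ligand RNA was not tested.

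Of the ligands of AXL and its relatives, GAS6, which binds AXL, rose from 549.4 ± 53.5 to 1217 ± 193 normalized counts (SD, n = 3, log2 fold change 1.14, limma adjusted p = 2.74e-05). PROS1, which acts mainly on the related receptors TYRO3 and MERTK, fell from 319.8 ± 36.3 to 152.6 ± 13.9 (SD, n = 3, log2 fold change -1.06, limma adjusted p = 0.000227). Without sh-KLF5 library 3 the value of PROS1 was -0.997, just short of the threshold.

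For the remaining receptors, FGF18 fell from 53.2 ± 18.0 to 4.36 ± 3.09 normalized counts (SD, n = 3, log2 fold change -3.51, limma adjusted p = 0.000188). FGF2, which was the more abundant of these per length (28.9 RPKM in sh-NC against 1.63 for FGF18), had 3225 ± 271 and 6296 ± 1699 (SD, n = 3), with a log2 fold change of 0.94 below the threshold. PDGFA, a ligand of PDGFRA, had a log2 fold change of 0.93, KITLG, the ligand of KIT, of 0.55, and WNT5A, the ligand of ROR1 and ROR2, of 0.40, each with an adjusted p under 0.05 but below the fold threshold. WNT5A was the most abundant tested ligand gene per length in sh-NC (49.2 RPKM), with 5997 ± 160 and 7964 ± 1053 normalized counts (SD, n = 3).

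**Figure D4:**
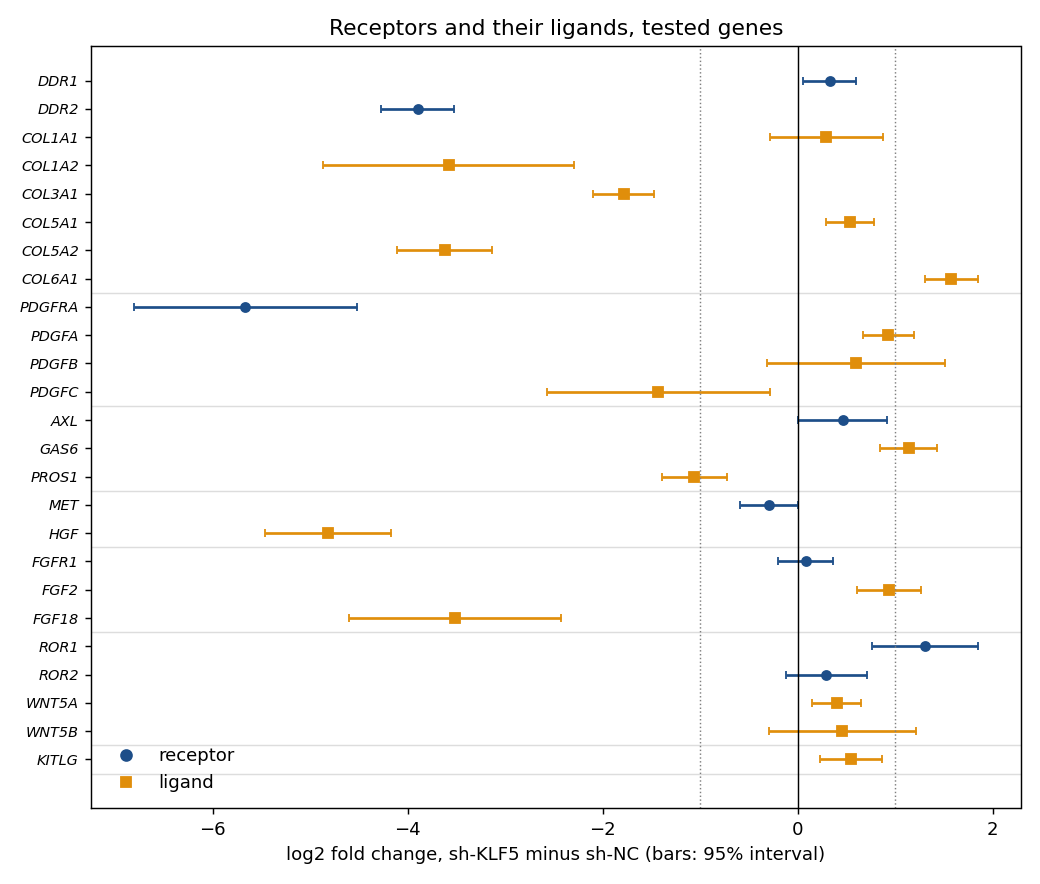
Log2 fold change of sh-KLF5 against sh-NC for the 8 tested receptors (circles) and the 17 tested ligand genes (squares), grouped by receptor, with 95% intervals from limma as bars and dotted lines at the fold threshold of 1 in either direction. The furthest to the left are PDGFRA (-5.67), HGF (-4.82) and DDR2 (-3.90), and the furthest to the right are COL6A1 (1.58) and ROR1 (1.31).

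Downstream of the receptors, 18 adaptor and signal relay genes (such as SHC1, GRB2 and PTPN11) were all in the table and 17 were tested. None was called in either direction by limma, edgeR or DESeq2. Among all 15803 tested genes, limma called 3.37% lower and 1.90% higher. No call among 17 genes is near these shares, and nothing is read from it. At an unadjusted p under 0.05, limma had 3 with lower and 1 with higher levels in sh-KLF5. The 3 were the docking protein GAB2, the regulatory subunit PIK3R1 of PI3-kinase and the Src family kinase FYN, with log2 fold changes of -0.74, -0.62 and -0.65 (limma adjusted p = 0.0402, 0.0136 and 0.0314). Of 16 attenuators, genes that dampen or shed receptor kinases, all were tested and SOCS1, a cytokine-induced inhibitor of signaling, was the only gene called (36.7 ± 6.996 to 87.3 ± 14.6 normalized counts, SD, n = 3, log2 fold change 1.23, limma adjusted p = 0.00318). Nothing is read from 1 call among 16 genes. At an unadjusted p under 0.05, limma had 2 attenuators with lower and 8 with higher levels in sh-KLF5. At an adjusted p under 0.05 these were 1 lower and 6 higher, SOCS1 among them. The receptor inhibitor LRIG1, the phosphatases PTPRJ, PTPRF and PTPN1, and ERRFI1 had log2 fold changes of 0.81, 0.69, 0.52, 0.42 and 0.44. That of the ubiquitin ligase CBL was -0.43. Each of these had a limma adjusted p under 0.05 but was below the fold threshold.

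DDR2, PDGFRA and PDGFRB are also genes of fibroblasts, and a list of 7 fibroblast markers, which shares PDGFRB, COL1A1 and COL3A1 with the genes above, was therefore read in the same libraries. All 7 were in the table and none was at 0 in every library. Their summed level was 67.5 to 100.4 CPM in sh-NC and 30.9 to 64.0 CPM in sh-KLF5. THY1 fell from 217 reads in sh-NC to 2 in sh-KLF5 (107-fold, exact 95% counting interval 29.3 to 891), and decorin (DCN) fell with a log2 fold change of -1.82 (limma adjusted p = 9.69e-05). FAP, the fibroblast activation protein, rose with a log2 fold change of 1.90 (limma adjusted p = 0.00029), and LUM and COL1A1 were not called. COL3A1 of this list fell as given above (-1.78), and PDGFRB had too few reads for the test. THY1, DCN and COL3A1 were thus called lower and FAP alone was called higher. The part of these markers in the values of DDR2 and PDGFRA was not tested.

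The genes whose pattern over the 6 libraries was most like that of DDR2 were found by the root mean square difference of their log2(normalized count + 1) values, each centred on its mean, among 11913 tested genes with a mean of at least 50 normalized counts. LIN28B, an RNA-binding protein that blocks let-7 maturation, was nearest (0.187), followed by LARGE2, a glycosyltransferase (0.236), SATB1, a chromatin organizer (0.273), FKBP10, a collagen chaperone (0.294), and COL5A2 (0.311). They lie on chromosomes 6, 11, 3, 17 and 2, so none shares chromosome 1 with DDR2. Their log2 fold changes were between -4.36 and -3.34. The difference between the groups, for which DDR2 was chosen, dominates its pattern, so a like fold change follows from the search itself. LIN28B, LARGE2 and SATB1 had only 5.82 to 8.02 normalized counts in the sh-KLF5 libraries.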

How the data were processed

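RNA-seq of SKOV3 cells was analysed, with 3 libraries of sh-NC and 3 of sh-KLF5 cells, grouped by the sample labels. According to the submitters' processing notes, the processing used HISAT2 2.0.5, featureCounts 1.5.0-p3 and DESeq2 1.20.0 on hg38. The strand setting and the annotation are not given in the sources used here. The coordinates and exonic lengths of 29180 of the 29185 genes equal those of GENCODE release 29. The authors deposited a normalized signal for each gene, which is the read count divided by 1 factor per library. Their deposited table also holds group means, log2 fold changes and p-values of their own comparison, which were not used.

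When the values of a library were divided by the smallest one above 0, this gave whole reads for 100% of the values (tolerance 0.001 reads), with totals between 15852319 and 17543896. RPKM values were computed from these reads and the joined exonic length of each gene. Intervals on reads cover counting error only. The test was limma 3.58.1 (R 4.3.3), with a trend in the variance and robust empirical Bayes moderation, on the log2 of the normalized count + 1, a scale that understates changes of low genes. The 15803 genes kept by edgeR's filterByExpr (minimum count 10) were tested, with Benjamini-Hochberg adjustment over all of them. A call needed an adjusted p under 0.05 together with a log2 fold change past 1 in either direction, and "rose" and "fell" are used only for called genes. The fit was tested on simulated data. Alternatives were edgeR 4.0.16 and DESeq2 1.42.0 on the recovered reads, other scalings, filters and pseudocounts, a replicate block, and leaving out each library.

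The receptors and all gene lists were chosen with earlier results of these data known. Named genes were the receptors, KLF5, called genes of the lists of other receptor kinases, ligands, adaptors and attenuators, the 3 most abundant other receptor kinases, genes that overlap a receptor, and the 5 nearest to DDR2 in pattern. Genes of these lists below the fold threshold and the marker genes were named after their values were seen. Promoter windows came from RefSeq on GRCh38.p14. The figures were made in Python 3.11.15 with matplotlib 3.10.9.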

Additional observations from a re-analysis of the deposited data

How the results depend on the processing

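The log2 fold change of DDR2 was -3.76 to -4.02 with each library left out in turn, and -3.80 to -3.93 under the other settings, so that it kept its direction and its size in all of them. KLF5 was -1.48 to -1.62 with each library left out. Requiring 10 or more reads in each library removes genes that are near 0 in sh-KLF5. It left 231 genes called lower and 241 called higher among all genes, against 533 and 301, and it left 1 receptor (DDR2), 1 other receptor kinase (ERBB3) and 4 ligand genes called lower. Of 29 named genes followed over the settings, 9 had too few reads for it and got no value, namely PDGFRA, FLT4, EPHA5, TEK, COL1A2, FGF18, LIN28B, LARGE2 and SATB1. These 29 were KLF5, the tested receptors, the called genes of the other receptor kinases, ligands, adaptors and attenuators, and the 5 nearest to DDR2 in pattern. Other named genes, such as EPHA2, EGFR and those that overlap a receptor, were not followed. Without a filter, 811 genes were called lower and 381 higher. With each library left out in turn, 2 to 3 other receptor kinases were called higher against 4, and the lowest number, 2, came without sh-KLF5 library 3. FGFR1 was -0.020 to 0.19 with each library left out, and its direction reversed, to -0.020, without that same library. The cause was not tested.

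Of the genes followed over the settings, 27 were other than KLF5 and DDR2. Where these had a value, fits without 1 library lost 8 calls (TEK, EPHB2 and PROS1). The other settings lost 4 (each time TEK), and none was gained in any fit. Most of these genes were already called in the main fit, so few could gain a call. Among all ligand genes, 3 against 2 were called higher without sh-KLF5 library 2 or 3. Without sh-KLF5 library 1, 7 against 6 were called lower. Library total scaling and TMM moved the median of all tested genes by 0.0071 and -0.0017 on the log2 scale. Libraries with the same number had correlations of their deviations of 0.130, 0.0068 and 0.108, and the labels do not say that a number marks a shared batch, so the libraries were not treated as pairs. A replicate block gave 567 genes lower and 327 higher, and a log2 fold change of -3.90 for DDR2. Depth limits PDGFRA, PDGFRB, FLT4, EPHA5 and TEK, whose reads are few in at least 1 group.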

Other observations

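The genes around the called receptors were read in the same fit. Of the genes within 500 kb of DDR2, 8 were tested, and limma, edgeR and DESeq2 called none of them (log2 fold changes -0.15 to 0.40, with 0 lower and 1 higher at an unadjusted p under 0.05 by limma). UAP1, an enzyme of UDP-N-acetylglucosamine synthesis near DDR2, had a log2 fold change of 0.30, and UHMK1, a kinase, of -0.11. None of the 8 had a log2 fold change below -0.15, against -3.90 for DDR2. Of 9 tested genes within 500 kb of ROR1, none was called by these tools either (-0.57 to 0.58, with 0 lower and 2 higher at an unadjusted p under 0.05 by limma). Among all 15803 tested genes, limma called 3.37% lower and 1.90% higher. No call among 8 or 9 genes is near these shares, and nothing is read from it. PGM1, phosphoglucomutase, had the highest value there, 0.58 (limma adjusted p = 0.00182), which was below the fold threshold. CHIC2, the only tested gene within 500 kb of PDGFRA, had a log2 fold change of 0.34 (standard error 0.20). The neighbours named here were chosen after their values were seen.

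Genes that share exonic bases with the receptors had few reads where they were in the table. AC011510.1, antisense to AXL over 1.30% of its exonic bases, had 0 to 8 reads per library. LETM2, on the strand opposite to FGFR1, had 22 to 58 reads per library, and it shares 138 bases with FGFR1.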
